A study of Mus musculus with 4 samples.

Results

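The 10 imprinted growth-control genes *H19*, *Dlk1*, *Meg3*, *Peg3*, *Peg10*, *Mest*, *Plagl1*, *Cdkn1c*, *Grb10*, and *Ndn* were followed by their FPKM in CD51+;CD200+ cells. They were taken by gene symbol from a list chosen with earlier results of these data known. All 10 were found among the 23946 symbols of each library. The cells were skeletal stem and progenitor cells sorted by FACS from wild type CD-1 mice at postnatal day 3, from 3 sutures of the skull, the posterior frontal (PF), the sagittal (SAG), and the coronal (COR), and from the growth plate (GP) of the tibia, which served as the reference. The paper states that all 3 sutures were patent at this age, and PF fuses later. Each suture sample included bone fronts, suture mesenchyme, dura mater, and periosteum before sorting. Cells of several mice were pooled, and 1 library was made per tissue. With 1 library per tissue there was no replicate error, no test between tissues was possible, and a difference between tissues cannot be told apart from a difference between libraries. In these bulk samples, fewer cells of a type and less RNA per cell cannot be told apart either.

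Imprinted genes are transcribed mainly from the allele inherited from either the mother or the father, a choice set by DNA methylation at CpG sites in control regions that often govern several neighbouring genes. Many of them act on growth before and shortly after birth. Genes expressed from the paternal allele often promote growth, and genes expressed from the maternal allele often restrain it, for example through the cell cycle or through insulin-like growth factor signaling. In skeletal tissue, *Cdkn1c*, which encodes the cell cycle inhibitor p57, is known for its role in cartilage and bone development, and *Dlk1* is known as a regulator of progenitor differentiation. Of the 10 genes, 6 are known as expressed from the paternal allele and 4 from the maternal allele. FPKM, the fragments of a gene scaled for transcript length and library size, sums both alleles, so neither imprinting nor methylation was measured here.

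RefSeq promoter sequences (GRCm38.p6, 250 bases before to 50 bases after the start) were held for 7 of the 10 genes, with 11 starts. *H19*, *Cdkn1c*, and *Peg10* had no entry. The sequences below are those of *Dlk1* and *Meg3*, neighbours that were both lowest in COR, of *Mest*, which was highest in GP, and of *Peg3*, the promoter that held the motif searched. Capitals mark CpG sites, and in *Peg3* also the motif GGGGCCCC, a GC-rich element known to be bound by the Plagl1 protein.
Dlk1 (chr12:109452573-109452872, plus strand): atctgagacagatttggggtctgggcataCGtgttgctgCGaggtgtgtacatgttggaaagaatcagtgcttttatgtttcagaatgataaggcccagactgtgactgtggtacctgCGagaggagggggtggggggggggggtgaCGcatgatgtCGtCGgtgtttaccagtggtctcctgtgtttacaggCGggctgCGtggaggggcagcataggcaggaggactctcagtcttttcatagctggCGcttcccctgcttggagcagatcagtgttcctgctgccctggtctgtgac
Meg3 (chr12:109540746-109541045, plus strand): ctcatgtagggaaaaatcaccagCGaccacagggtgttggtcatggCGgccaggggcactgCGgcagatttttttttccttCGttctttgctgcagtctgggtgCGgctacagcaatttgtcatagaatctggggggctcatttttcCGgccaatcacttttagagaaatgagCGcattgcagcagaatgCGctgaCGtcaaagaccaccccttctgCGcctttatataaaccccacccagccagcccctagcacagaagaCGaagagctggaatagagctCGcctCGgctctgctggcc
Mest (chr6:30737800-30738099, plus strand): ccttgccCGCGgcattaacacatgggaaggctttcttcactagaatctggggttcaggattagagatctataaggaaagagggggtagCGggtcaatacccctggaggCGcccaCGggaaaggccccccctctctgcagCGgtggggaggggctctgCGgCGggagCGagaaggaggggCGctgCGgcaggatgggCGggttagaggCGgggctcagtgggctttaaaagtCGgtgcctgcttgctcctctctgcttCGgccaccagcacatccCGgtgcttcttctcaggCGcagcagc
Peg3 (chr7:6730370-6730669, minus strand): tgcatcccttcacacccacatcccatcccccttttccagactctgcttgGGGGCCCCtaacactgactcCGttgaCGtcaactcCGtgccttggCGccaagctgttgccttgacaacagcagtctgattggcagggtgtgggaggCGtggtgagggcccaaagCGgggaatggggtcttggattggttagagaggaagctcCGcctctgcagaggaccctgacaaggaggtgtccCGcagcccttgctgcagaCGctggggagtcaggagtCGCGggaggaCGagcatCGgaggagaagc

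The *Dlk1* promoter held 9 CpG sites, the *Meg3* promoter 13, the *Mest* promoter 17, and the *Peg3* promoter 13. The median was 13 CpG sites over the 11 promoters of these genes and 7 over all 32851 RefSeq promoters, and 10 of the 11 lay above that median. The 11 are not all separate: the *Mest* windows that begin at 30737800 and 30737803 overlap almost fully, with 17 CpG sites each. The highest count, 45, belonged to a start of *Grb10*, and the lowest, 1, to another start of *Meg3*. GGGGCCCC, which reads the same on both strands, was found in 1 of the 11 promoters, *Peg3*, where it began 201 bases before the start. It was found in 1.08% of all promoters. These matches describe the letters of the windows only.

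The number of sequenced fragments is not given with the FPKM. For single-transcript genes, the lowest values times transcript length fell at 0.0583 in PF and at 0.0256, 0.029, and 0.0306 in SAG, COR, and GP, taken here as the worth of 1 fragment. By this reading, which assumes plain scaling by library size, PF had 43.9% of the depth of SAG, COR 88.4%, and GP 83.7%. By the same rough estimate, the 9 genes above 1 FPKM rested on about 1055 to 152884 fragments each. It took the longest annotated transcript of each gene, so where shorter transcripts dominate the fragments are fewer. With that length the counting error was at most 3.08%, which would be larger with fewer fragments. This error does not include variation between animals or preparations. *Itgav* (CD51) was at 6.20 FPKM or more, *Cd200* at 23.5 to 62.6, and the osteogenic factor *Runx2* at 9.41 to 30.4 across the libraries. Markers of other cell types differed between libraries: the 7 chondrocyte genes summed to 3620 FPKM in SAG and 2851 in GP but 121 in PF and 115 in COR, and the 7 choroid plexus genes to 5358 FPKM in SAG and 51.9 to 507 elsewhere. The 7 genes of neurons summed to 2.69 to 10.3 FPKM and the 8 genes of skeletal muscle to 3.52 to 12.9, with *Myod1* and *Pax7* at 0 in every library. The 6 leukocyte genes summed to 31.5 FPKM in PF and to 8.25 or less elsewhere, the 5 erythroid genes to 15.6 in PF and to 1.93 or less elsewhere, the 6 endothelial genes to 16.9 in SAG and to 4.41 or less elsewhere, and the 5 adipocyte genes to 3.56 or less in the sutures and to more in GP, where *Fabp4* was at 14.9. *Lyz2* alone made up 30.2 FPKM of the leukocyte sum in PF, and *Kdr* 14.9 of the endothelial sum in SAG. Only 1 leukocyte gene was at 1 FPKM or more in each library, and only 1 endothelial gene in SAG. Of the 6 meningeal genes, 5 were at 1 FPKM or more in each suture and 4 in GP, with sums of 1029 to 3468 FPKM. *Mgp* alone made up 965 to 3311 FPKM of these sums. *Foxc1* was at 24.0 to 62.4 FPKM, and *Slc6a13* at 0.23 or less in every library.

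Of the 10 genes, 9 were at 6.57 FPKM or more in every library, and *Peg10* was below 1 FPKM in each. *Cdkn1c* was among the most abundant transcripts of these cells, with the 8th highest FPKM of the PF library and the 16th highest in GP. *Mest* ranked 14th in GP and 67th in PF. *Peg3* and *Meg3* were between 16.2 and 65.8 FPKM, and the lowest value of the 9 genes was that of *Dlk1* in COR, 6.57. None of the 10 genes was listed at 0 in any library.

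**Figure D1:**
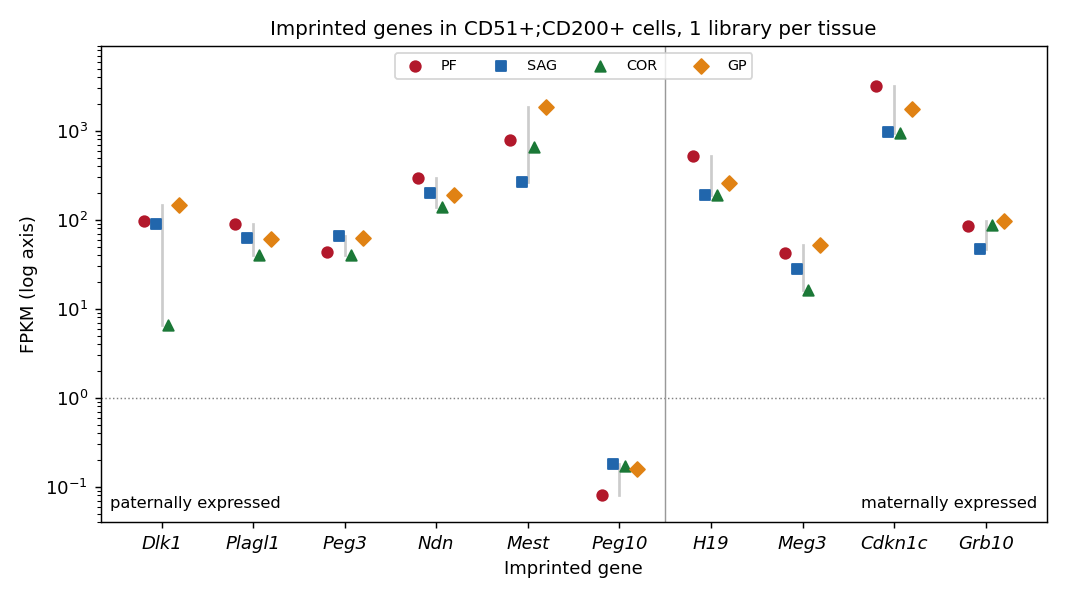
FPKM of the 10 imprinted genes (log axis) in the 4 libraries of CD51+;CD200+ cells, with 1 point per library, a grey line from the lowest to the highest value, and a dotted line at 1 FPKM. *Dlk1* was 6.57 FPKM in COR and at least 88.9 in the other libraries, and *Peg10* was below 1 FPKM in each.

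*Cdkn1c* (mm9 chromosome 7, 150644255 to 150646955, minus strand) encodes p57, which blocks cyclin-dependent kinases and favours exit from the cell cycle. It was at 3198 FPKM in the PF library, 961 in SAG, 945 in COR, and 1742 in GP. PF stood above the other libraries, SAG and COR were nearly level, and GP lay between. On the log2(FPKM + 1) scale, PF differed from SAG by 1.73 (3.33-fold) and from COR by 1.76 (3.38-fold). After a correction for GC content these differences were 1.11 and 1.38, below 3-fold, and after quantile normalization they were 1.07 and 1.36. PF stayed above SAG and COR under each alternative run. The transcript had the highest GC content of the 10 genes, 59.7%, and the part of GC content in this difference was not tested further.

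*H19* (chromosome 7, 149761434 to 149764048, minus strand) gives a long noncoding RNA that restrains growth and is the precursor of a microRNA. It was at 517 FPKM in the PF library, 191.7 in SAG, 191.1 in COR, and 259 in GP. As with *Cdkn1c*, PF was highest and SAG and COR were level. The log2 difference of PF was 1.43 from SAG and 1.43 from COR, 2.69-fold and 2.70-fold. These values were short of 3-fold, except relative to *Gapdh*, where they were 1.96 and 1.68. With quantile normalization they were 1.04 and 1.29, and with the GC correction 0.98 and 1.19.

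*Grb10* (chromosome 11, 11830511 to 11938686, minus strand) encodes an adaptor that dampens signaling by the insulin and IGF1 receptors. It was at 85.1 FPKM in the PF library, 47.4 in SAG, 86.4 in COR, and 97.8 in GP. SAG was the low library, and the other libraries lay close together. The log2 difference was 0.83 for PF vs SAG and 0.85 for COR vs SAG.

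*Meg3* (chromosome 12, 110779211 to 110809936, plus strand) gives a long noncoding RNA that carries several microRNA genes in the same transcribed region. It was at 42.0 FPKM in the PF library, 28.1 in SAG, 16.2 in COR, and 51.9 in GP. COR was lowest and GP highest, 1.62 apart on the log2 scale (3.07-fold).

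*Dlk1* (chromosome 12, 110691033 to 110701546, plus strand) encodes a membrane protein related to Notch ligands that restrains adipocyte differentiation. It was at 96.4 FPKM in the PF library, 88.9 in SAG, 6.57 in COR, and 145 in GP. COR stood apart from the other libraries, among which the highest value was GP. COR was lower than SAG by 3.57 on the log2 scale (11.9-fold), lower than PF by 3.68 (12.9-fold), and lower than GP by 4.27 (19.3-fold). This was the widest range among the 10 genes, and 96.5% of all genes with 20 FPKM or more in at least 1 library had a narrower one. Between PF and SAG the log2 difference was 0.11, and its sign changed to -0.15 with quantile normalization and to -0.19 with the GC correction. Beside the low *Dlk1* in COR, the 7 skeletal stem and osteogenic genes summed to 1121 FPKM in COR and to 203 to 632 elsewhere, with *Sp7*, an osteoblast factor, at 199.9 in COR and at 7.93 to 47.3 elsewhere. *Alpl* made up 645 FPKM of the COR sum. *Prrx1* was higher in GP (57.7) than in COR (43.5), and the others were highest in COR. *Cd200* (62.6 in COR, 57.1 in GP) and *Itgav* (15.0 and 13.5) differed little between COR and GP. All 7 of these genes were at 1 FPKM or more in every library, and their part in the difference was not tested.

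*Mest* (chromosome 6, 30673547 to 30698457, plus strand) encodes a membrane protein of the hydrolase fold family that is abundant in embryonic mesoderm. It was at 794 FPKM in the PF library, 269 in SAG, 663 in COR, and 1835 in GP. GP was highest and SAG lowest, 2.77 apart on the log2 scale (6.80-fold). GP was above PF by 1.21 and above COR by 1.47. PF was above SAG by 1.56 (2.94-fold), just short of 3-fold, and passed it with median-ratio scaling (1.59), relative to *Gapdh* (2.09), and with the GC correction (1.74), while with quantile normalization it was 1.16. The sum of the 7 chondrocyte genes, given above, was highest in SAG, where *Mest* was lowest, and next highest in GP, where *Mest* was highest. The part of these genes in the *Mest* values was not tested.

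*Plagl1* (chromosome 10, 12810497 to 12851500, plus strand) encodes a zinc finger transcription factor known to regulate other imprinted genes. It was at 89.2 FPKM in the PF library, 62.5 in SAG, 40.6 in COR, and 60.5 in GP. *Ndn* (chromosome 7, 69493163 to 69494814, plus strand), the gene of necdin, a protein linked to the arrest of cell division, was at 294 FPKM in the PF library, 200.2 in SAG, 139 in COR, and 190.7 in GP. Both followed the order PF, SAG, GP, and COR, with PF above COR by 1.12 for *Plagl1* and by 1.08 for *Ndn* on the log2 scale. SAG and GP differed by less than 0.1 for each, as values with no error attached.

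*Peg3* (chromosome 7, 6656603 to 6683132, minus strand) encodes a large zinc finger protein. It was at 44.0 FPKM in the PF library, 65.8 in SAG, 40.1 in COR, and 62.4 in GP. SAG and GP were level above PF and COR, and its log2 range of 0.70 was the narrowest of the 9 expressed genes. It was the only gene among these 9 that was lower in PF than in SAG in the values as deposited, by a log2 ratio of -0.57.

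*Peg10* (chromosome 6, 4697306 to 4710514, plus strand) derives from a retrotransposon and is best known in the placenta. It was at 0.08 FPKM in the PF library, 0.18 in SAG, 0.17 in COR, and 0.157 in GP. At this level, about 9.14 fragments in PF and 34.2 to 46.7 in the other libraries by the rough estimate, a difference between the tissues was not detectable. *Peg10* therefore did not pass the filter of 1 FPKM in at least 1 library and enters none of the counts.

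The 4 comparisons were read with a threshold of 3-fold, 1.58 on the log2 scale. For PF, the suture that fuses after this age, against SAG, a midline suture that stays patent, 1 of the 9 genes passed, *Cdkn1c*, higher in PF. Of all 13490 genes compared, 15.7% passed in either direction, 6.64% as higher in PF, and among genes with 20 FPKM or more in either library 12.7% passed. The share of the imprinted genes was thus near the background. By direction alone, 8 of the 9 were higher in PF, against 51.0% of all genes, and their median log2 difference was 0.56 against 0.03 over all genes. Among genes at 20 FPKM or more the median was 0.21, with 59.8% higher in PF. The 4 maternally expressed genes had a median of 1.13 and the 5 paternally expressed genes a median of 0.51.

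For PF against COR, 2 of the 9 genes passed, *Dlk1* and *Cdkn1c*, both higher in PF, against 11.7% of all 12853 genes in either direction, 6.81% as higher in PF, and 7.37% of genes at 20 FPKM or more. Again 8 of the 9 were higher in PF, against 52.3% of all genes, and the exception was *Grb10*, whose log2 difference was -0.02 and changed sign with the GC correction (0.08) and relative to *Gapdh* (0.23). The median log2 difference was 1.12, against 0.05 over all genes and 0.06 over those at 20 FPKM or more. Here the maternally expressed genes had a median of 1.38 and the paternally expressed genes a median of 1.08.

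For COR against SAG, which both stay patent, 1 of the 9 genes passed, *Dlk1*, lower in COR. Of all 12720 genes, 9.25% passed in either direction and 6.15% as lower in COR. Among genes at 20 FPKM or more, 10.2% passed. *Mest* and *Grb10* were higher in COR, 2 of the 9 against 48.6% of all genes and 59.2% of those at 20 FPKM or more. The other 7 genes were lower. For *H19* and *Cdkn1c* the log2 differences were -0.004 and -0.02, and both changed sign with median-ratio scaling and relative to *Gapdh*. The median log2 difference was -0.53, against -0.02 over all genes and 0.12 over those at 20 FPKM or more. It was -0.01 for the maternally and -0.61 for the paternally expressed genes.

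For GP against the mean of the sutures on the log2 scale, 2 of the 9 genes passed, *Dlk1* (1.85) and *Mest* (1.81), both higher in GP, against 3.41% of all 13998 genes in either direction, 2.24% as higher in GP, and 4.71% of genes at 20 FPKM or more. Each call rested on 1 suture library: without COR the *Dlk1* difference was 0.65, and without SAG the *Mest* difference was 1.34. By direction, 6 of the 9 were higher in GP, against 48.2% of all genes. The medians were 0.35 for the 9 genes, 0.38 for the maternally and 0.35 for the paternally expressed genes, and -0.02 for all genes. *Ndn*, *H19*, and *Plagl1* had differences of -0.08, -0.04, and -0.01, and all were positive without PF. Against COR alone, all 9 genes were higher in GP, against 48.0% of all genes, and 2 of them, *Dlk1* and *Meg3*, passed 3-fold, where 4.40% of all genes did. Against PF alone, none of the 9 passed (12.0% of all genes did), and 5 were higher in GP, against 48.7% of all genes, with a median of -0.34 for the maternally and 0.49 for the paternally expressed genes. Against SAG alone, *Mest* passed (8.66% of all genes did), and 6 were higher in GP, against 47.9% of all genes. Among genes at 20 FPKM or more, 58.3% were higher in GP than in SAG, 46.4% than in PF, and 46.6% than in COR. Against SAG the order of the medians was the reverse of that against PF, 0.86 for the maternally and -0.05 for the paternally expressed genes. Against COR alone the medians were 0.66 and 0.63. These comparisons share the GP library and are not independent of each other.

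**Figure D2:**
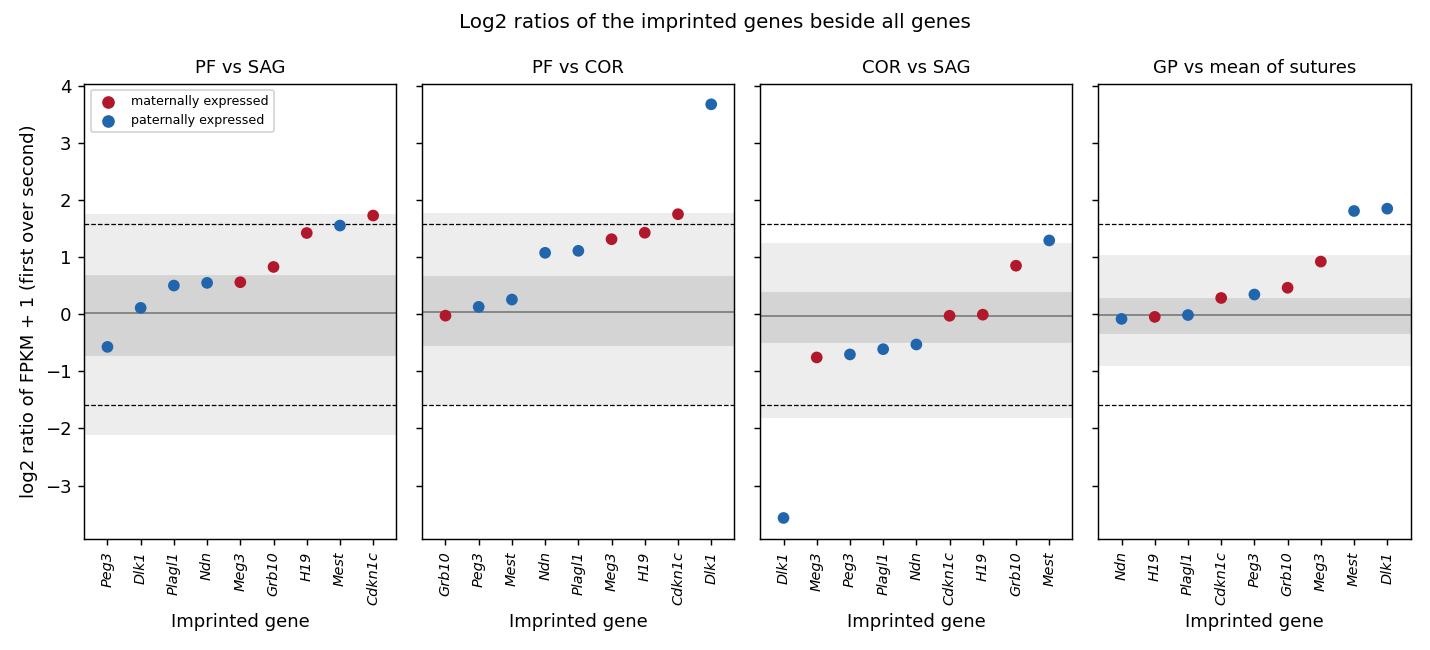
Log2 ratios of FPKM + 1 of the 9 imprinted genes that passed the filter, in 4 comparisons, with points coloured by the allele expressed. The grey line is the median of all genes, the dark and light bands hold the middle 50% and 90% of all genes, and dashed lines mark 3-fold. *Dlk1* lay far outside the bands where COR was compared with PF or SAG, and *Mest* and *Dlk1* lay above the upper line for GP.

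Between the highest and the lowest library, 4 of the 9 genes were at least 3-fold apart, *Dlk1*, *Mest*, *Cdkn1c*, and *Meg3*, against 24.7% of all genes and 21.0% of genes at 20 FPKM or more. COR was the lowest library for 7 of the 9, against 16.3% of the 5098 genes with 20 FPKM or more in at least 1 library. For *H19* and *Cdkn1c*, among these 7, COR was nearly level with SAG and was no longer lowest with median-ratio scaling or relative to *Gapdh*. SAG was lowest for the other 2, *Mest* and *Grb10*, against 37.4% of genes. PF was highest for 4 of the 9 (*H19*, *Cdkn1c*, *Plagl1*, and *Ndn*), against 38.0% of genes, and GP for 4 (*Dlk1*, *Meg3*, *Mest*, and *Grb10*), against 18.3%. SAG was highest for *Peg3* (21.2% of genes), and COR was highest for 0 of the 9, against 22.5% of genes. As a description of profiles over 4 libraries, *Plagl1* and *Ndn* were the most alike, at a Euclidean distance of 0.083 between mean-centred log2 values, followed by *H19* and *Cdkn1c* at 0.39. The largest distance, 3.57, was between *Dlk1* and *Grb10*. A median profile of the imprinted genes was also taken, here with *Peg10* included despite its low level. The 3 genes nearest to it, of 6627 genes with 5 FPKM or more in every library, were *2210013O21Rik* (distance 0.159), *Malsu1* (0.168), and *Arxes1* (0.179). *Malsu1*, a mitochondrial ribosome assembly factor, was at 56.2 FPKM in the PF library, 36.4 in SAG, 31.5 in COR, and 48.3 in GP.

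Imprinted neighbours were compared with the members of the same domain, a grouping made after the values were seen. On chromosome 12, *Dlk1* and *Meg3* lie 77.7 kb apart and are expressed from opposite alleles. The ratio of *Dlk1* to *Meg3* FPKM was 0.405 in COR, against 2.29 in PF, 3.17 in SAG, and 2.80 in GP. Both genes were lowest in COR, and *Dlk1* was lower by the greater factor. The other genes of this domain were low in level: the noncoding RNA *Rian* was at 1.43 FPKM in the PF library, 0.528 in SAG, 0.296 in COR, and 1.42 in GP, while the noncoding RNA *Mirg* at 2.14, 1.77, 0.823, and 2.82 in the same order. *Rtl1*, a retrotransposon-derived gene, was at 3.23 FPKM in the PF library, 0.43 in SAG, 0.13 in COR, and 0.54 in GP, while *Begain*, a gene known from synapses, was at 9.88, 6.09, 1.74, and 2.06. COR was thus lowest for each of these genes, though for *Begain* it was nearly level with GP (1.12-fold on the FPKM + 1 scale). *Rian*, *Mirg*, and *Rtl1* were below 1 FPKM in COR, where values are the least precise. *Dio3*, at the far end of the domain, was at 0.35 FPKM or less in every library.

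On distal chromosome 7, *H19* and *Igf2*, which encodes a fetal growth factor and shares enhancers with *H19*, lie 72.6 kb apart. *Igf2* was at 833 FPKM in the PF library, 453 in SAG, 671 in COR, and 763 in GP. Its FPKM ratio to *H19* was lowest in PF at 1.61 and highest in COR at 3.51, with 2.37 in SAG and 2.95 in GP. *Igf2* was thus not level between SAG and COR where *H19* was. *Phlda2*, a restrainer of placental growth next to *Cdkn1c*, was at 8.87 FPKM in the PF library, 3.02 in SAG, 1.66 in COR, and 5.28 in GP, with libraries in the same order as for *Cdkn1c*. *Kcnq1ot1*, the noncoding RNA of that domain, was at 0.788 to 1.72 FPKM, lowest in COR and highest in PF.

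On chromosome 6, *Sgce*, which encodes a sarcoglycan, starts next to *Peg10*, with 0.102 kb between the genes. *Sgce* was at 57.9 FPKM in the PF library, 49.4 in SAG, 57.5 in COR, and 72.3 in GP, so that the *Sgce* level per length was 275 to 724 times that of *Peg10*. *Copg2*, a coatomer subunit gene, overlaps the annotated end of *Mest* by 0.903 kb on the opposite strand, and whether counting used strand is not given in the sources used here. *Copg2* was at 3.46 FPKM in the PF library, 9.50 in SAG, 7.26 in COR, and 6.79 in GP, at most 1 in 28.3 of the *Mest* level. On proximal chromosome 7, *Usp29*, an imprinted neighbour of *Peg3*, stayed below 1 FPKM, at 0.069 in COR and up to 0.993 in PF. *Magel2*, the neighbour of *Ndn*, was at 1.61 FPKM in GP, 0.314 in SAG, and 0.185 in COR, and is listed at 0 in PF.

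**Figure D3:**
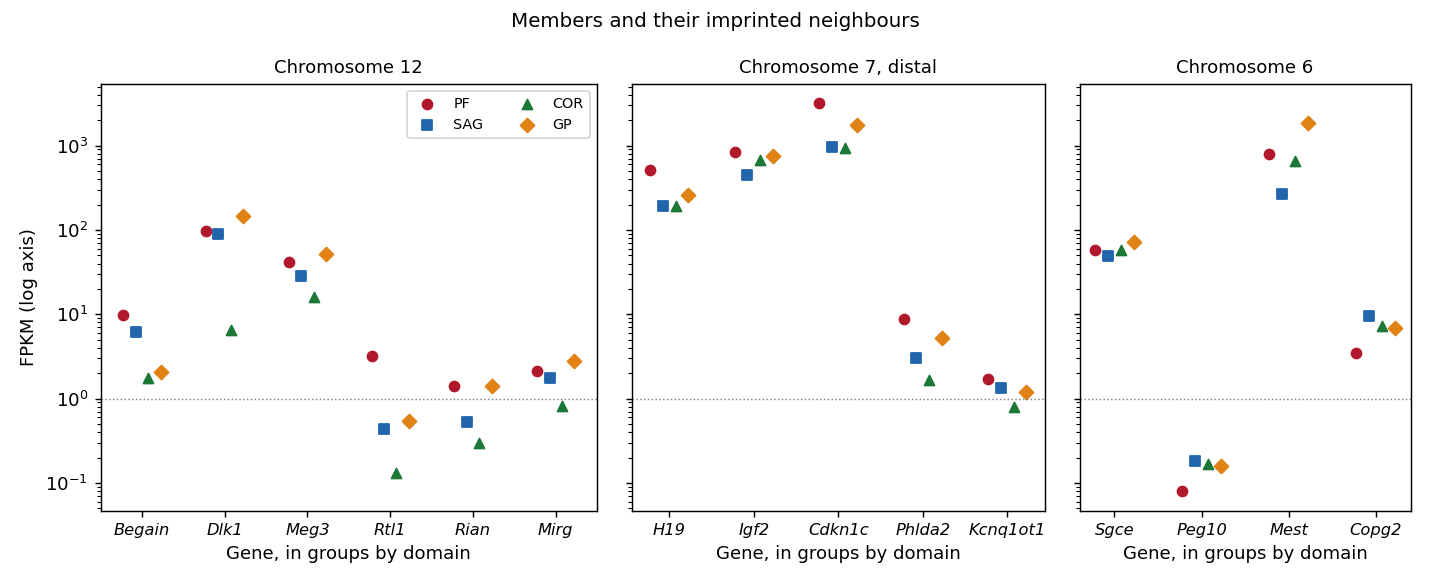
FPKM (log axis) of members and imprinted neighbours on chromosomes 12, 7, and 6, with 1 point per library and a dotted line at 1 FPKM. In the chromosome 12 panel COR was the lowest library for all 6 genes, nearly level with GP for *Begain*. In the chromosome 6 panel *Sgce* was at 49.4 FPKM or more where *Peg10* was at 0.18 or less.

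A wider list held 60 other genes reported as imprinted in some mouse tissue, of which 59 were found. Some of them are imprinted only in placenta or brain. Between PF and SAG, 7 of the 47 that passed the filter were at least 3-fold different, 2 higher and 5 lower in PF, with a median log2 difference of 0.18. Between PF and COR it was 5 of 46, 4 higher and 1 lower, with a median of 0.25. Between COR and SAG it was 3 of 46, all lower in COR, with a median of -0.29. Between GP and the sutures it was 3 of 51, 2 higher and 1 lower in GP, with a median of 0.11. These shares, 14.9%, 10.9%, 6.52%, and 5.88%, stand beside 15.7%, 11.7%, 9.25%, and 3.41% of all genes. Of the 59, 18 had 20 FPKM or more in at least 1 library. COR was highest for 0 of these 18, against 22.5% of all genes at that level, and lowest for 3, against 16.3%.

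The widest differences in that list involved SAG. *Nnat*, the gene of the membrane protein neuronatin, was at 1545 FPKM in SAG, 37.8 in PF, 26.6 in COR, and 17.9 in GP. *Snrpn*, a splicing protein gene in the domain of *Ndn*, was at 22.7 FPKM in SAG and 1.90 to 4.88 elsewhere, and *Nap1l5* at 9.68 in SAG and 0.03 to 1.93 elsewhere. In SAG the 7 choroid plexus genes were also highest in sum, of which *Ttr* made up 5103 FPKM. Of these 7 genes, 6 were at 1 FPKM or more in SAG, as in PF, and *Aqp1* was lowest in SAG at 11.9 FPKM, against 24.2 to 53.8 elsewhere. The part of such cells in the SAG values was not tested. Of the 9 members, *Peg3* alone was highest in SAG, 1.05-fold above GP on the FPKM + 1 scale. *Dcn*, the gene of the matrix proteoglycan decorin, was at 2503 FPKM in the PF library, 496 in SAG, 1271 in COR, and 2268 in GP, while the receptor tyrosine kinase gene *Axl* at 44.8, 13.3, 22.6, and 38.8. Both were lowest in SAG, as *Mest* and *Grb10* were.

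Other differences set PF or GP apart. *Pon3*, a paraoxonase gene, was at 2.21 FPKM in PF and 14.9 to 27.6 elsewhere. *Cobl*, a gene of an actin nucleator near *Grb10*, was at 6.88 FPKM in the PF library, 2.74 in SAG, 0.50 in COR, and 0.32 in GP, an order unlike that of *Grb10*. *Klf14*, a transcription factor gene, was at 14.0 FPKM in GP and 0.94 to 2.35 in the sutures. *Asb4*, which passed for GP at 3.40 FPKM, *Mkrn3*, which passed as lower in PF than in SAG at 0.05 against 2.42 FPKM, and *Rtl1*, which passed as higher in PF than in COR, were named after their values were seen.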

How the data were processed

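RNA of CD51+;CD200+ cells was measured in 1 library per tissue, mapped to PF, SAG, COR, or GP from the sample titles. The authors amplified cDNA from low input RNA, mapped paired-end reads to mouse mm9 with STAR 2.5.1b, and deposited FPKM per gene symbol from Cuffdiff of Cufflinks 2.2.1 with the Illumina iGenomes gene model. The library normalization within Cuffdiff is not given in the sources used here. Amplification and a PF library of about 43.9% of the fragments of SAG make low values the least precise.

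Log2 ratios used a pseudocount of 1, which understates changes of low genes. Genes needed 1 FPKM in at least 1 library compared, and 3-fold or more was counted without a test. The 10 genes and all lists were chosen with earlier results of these data known. All 10 were named, with listed neighbours and other imprinted genes past 3-fold at 5 FPKM or more in the higher library. Positions, lengths, and GC content came from GENCODE vM1 on mm9, which covered 87.2% of symbols, and promoters from RefSeq on GRCm38.p6. Alternatives were a pseudocount of 0.1, other filters, median-ratio scaling, quantile normalization, values relative to *Gapdh*, a loess GC correction (span 0.3), and leaving out each suture. Python 3.11.15, numpy 2.4.6, pandas 2.3.3, statsmodels 0.14.6, and matplotlib 3.10.9 were used, and the counting step was tested on simulated data.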

Additional observations from a re-analysis of the deposited data

How the results depend on the processing

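No paired analysis was possible because no tissue was sequenced more than once. The 9 genes lie above every filter tried, so the 3 alternatives on filters could not move their 12 counts or 108 ratios and show nothing about stability. Under the other alternatives, 16 of 23 counts stayed within 1.5 times the reported count. Of 207 single gene ratios, 196 kept their side of 3-fold, 6 fell below it, and 5 rose past it. Most of the 207 were below 3-fold as reported, so the 196 say little about the stability of the calls. The 6 losses were *Cdkn1c* in both PF comparisons, with quantile normalization and with the GC correction, *Dlk1* for GP without COR, and *Mest* for GP without SAG. For PF vs SAG, the count of 1 became 2 with median-ratio scaling, 0 with quantile normalization, and 3 relative to *Gapdh*; with the GC correction it was 1, but the gene was *Mest* and not *Cdkn1c*. For PF vs COR, the count of 2 became 1 with quantile normalization and 1 with the GC correction, where *Dlk1* was left, and 3 relative to *Gapdh*, where *H19* was added. For GP vs the mean of the sutures, the count of 2 became 1 without SAG and 1 without COR. For COR vs SAG the count was 1, *Dlk1*, under each alternative run. No ratio past 3-fold changed sign, and 15 of the smaller ratios did. Values relative to *Gapdh* moved the median of all genes from 0.03 to 0.51 for PF vs SAG, from 0.05 to 0.29 in the contrast with COR, from -0.02 to 0.23 for COR vs SAG, and from -0.02 to -0.20 for GP, so its gains for PF follow from its construction. With a pseudocount of 0.1 the background was 27.4%, 22.8%, 15.8%, and 10.6% of genes (PF vs SAG, PF vs COR, COR vs SAG, GP), while the counts of imprinted genes were as reported. With 1 FPKM or more in every library compared it was 8.76%, 5.88%, 5.56%, and 1.63%. The cause of the other changes was not tested.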
